A study of Mus musculus with 16 samples.

Results

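Defensins are small secreted peptides that kill or hold back microbes, and their folded form is held together by paired cysteines. In mice the alpha family, also called cryptdins, is known from Paneth cells at the base of the small intestinal crypts, where the protease Mmp7 cuts the precursors into active peptides. The beta family is known from lining epithelia such as skin, airway and kidney, and many of its genes are known from the epididymis. As background, the first coding exon of an enteric alpha-defensin gene encodes the signal peptide and the propiece and the next encodes the mature peptide. In a beta-defensin gene the first coding exon encodes little beyond the signal peptide.

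The defensin genes described here are the Ensembl genes of any biotype in the deposited mouse annotation whose symbol starts with Defa or Defb. They number 72 of the 46078 Ensembl genes, with 30 in the alpha family and 42 in the beta family. The study cultured macrophages from bone marrow for 7 days with the growth factor M-CSF at 50 ng/ml. Its 16 libraries came from untreated cells and from cells given lipopolysaccharide (LPS), a bacterial membrane component. RNA-seq gave 3 LPS and 3 untreated libraries, and ribosome profiling gave 2 LPS and 2 untreated libraries, all from WT C57BL/6 mice. RiboTag sequencing gave 2 untreated libraries, 2 libraries at 6 h of LPS and 2 at 24 h. Its mice were LysM-Cre x RiboTag, in which Cre, driven by the lysozyme 2 locus and so active in myeloid cells, switches on an HA tag on a ribosomal protein. For the RNA-seq and ribosome profiling libraries the hours of LPS are not stated per sample. The deposited file holds gene models and no value per library, so the library depth, the LPS comparison and the cell type labels were not analysed here. Genes are not replicates, so counts and medians are given as descriptions with no test.

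The promoter letters are shown first, because the 6 alpha members with a window had like sequences there. A run of beta genes on chromosome 8 shared another sequence. RefSeq promoter windows of assembly GRCm38.p6, which reach from 250 bases before a gene's start to 50 after it, were found for 6 alpha members and 28 beta members. The 6 alpha windows formed 3 pairs of identical sequence, Defa21 with Defa22, Defa23 with Defa-rs7, and Defa2 with Defa20. The 100 bases before the RefSeq start are printed for the first gene of each pair, 5′ to 3′ on the plus strand. Capitals mark TATAAA, a form of the box that places transcription starts, and ATCAAAG. Read on the other strand these letters are CTTTGAT, a match to the motif bound by the TCF factors of the Wnt pathway.
Defa21 (chr8:21025445-21025544): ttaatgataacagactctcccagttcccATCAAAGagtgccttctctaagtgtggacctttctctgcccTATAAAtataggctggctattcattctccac
Defa23 (chr8:21054940-21055039): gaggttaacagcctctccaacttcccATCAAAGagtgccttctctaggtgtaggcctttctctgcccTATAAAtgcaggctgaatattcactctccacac
Defa2 (chr8:21378417-21378516): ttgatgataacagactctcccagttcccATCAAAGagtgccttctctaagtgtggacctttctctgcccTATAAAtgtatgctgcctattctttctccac

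TATAAA, searched on the gene's own strand, stood in 6 of 6 alpha windows. It stood in 3 of 28 beta windows (Defb15, Defb23 and Defb48), and in 8.32% of all 32851 mouse promoter windows of the same length. In the 6 alpha genes it began 31 or 33 bases before the RefSeq start, and in every one of them 74 bases before the start of the coding sequence. CTTTGAA or CTTTGAT on either strand was in 6 of 6 alpha windows, in 2 of 28 beta windows (Defb39 and Defb43) and in 8.65% of all windows. Each alpha window held ATCAAAG at 155 and again at 115 bases before the coding start, and the nearer copy is the one in capitals above. The NF-kappaB consensus, searched on both strands, was in 0 of 6 alpha windows, in 2 of 28 beta windows (Defb28 and Defb6) and in 4.51% of all windows. These are matches of letters and not measured binding sites.

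A second shared sequence stood before beta genes that lie close together on chromosome 8, and in 5 of them it held TATATAA. The windows of these 5 are printed in the same way, with TATATAA in capitals. Defb8 is on the minus strand while the others are on the plus strand. Defb46, which lies between Defb6 and Defb5, had tatctaa at that place in an otherwise like stretch and is not printed.
Defb6 (chr8:19225378-19225477): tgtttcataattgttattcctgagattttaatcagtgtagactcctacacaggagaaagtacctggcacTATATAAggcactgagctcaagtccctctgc
Defb5 (chr8:19247492-19247591): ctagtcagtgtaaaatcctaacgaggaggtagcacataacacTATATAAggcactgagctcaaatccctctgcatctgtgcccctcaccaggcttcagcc
Defb3 (chr8:19293261-19293360): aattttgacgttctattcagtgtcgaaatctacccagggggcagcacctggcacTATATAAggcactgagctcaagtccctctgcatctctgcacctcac
Defb8 (chr8:19447607-19447706): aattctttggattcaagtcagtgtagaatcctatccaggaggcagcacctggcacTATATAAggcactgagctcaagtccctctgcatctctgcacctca
Defb7 (chr8:19494997-19495096): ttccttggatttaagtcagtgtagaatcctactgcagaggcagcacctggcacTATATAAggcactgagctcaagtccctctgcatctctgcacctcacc

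TATATAA, which shares no full match with TATAAA in these windows, was found in these 5 of 28 beta windows, in 0 of 6 alpha windows and in 2.20% of all windows. Its distance from the RefSeq start ran from 31 bases in Defb6 to 58 bases in Defb5. Counted from the start of the coding sequence, it was 58 bases in each of the 5 genes. RefSeq places the gene start at different points of what is otherwise a like stretch of sequence.

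Identity was also computed over whole promoter windows. Among the 15 pairs of alpha windows the median identity in a global alignment was 81.6% (lowest 80.9%, highest 100%). The 168 pairs of an alpha and a beta window had a median of 46.9% and reached at most 51.7%, and this is the level that unlike windows gave under the same scoring. The 378 pairs of beta windows had a median of 47.5% and ran from 42.3% to 87.8%. The highest beta pair was Defb3 and Defb8, and it was the only one at 80% or more. Defb3, Defb5, Defb6, Defb7, Defb8 and Defb46 formed 15 pairs with a median of 75.9% (65.8% to 87.8%). Defb9, Defb10 and Defb11 matched each other at 68.4% to 71.4%, and Defb38 matched Defb39 at 61.6%. These 11 genes were the beta members whose best match reached 60%, and in all 11 that match lay in the same chromosomal group. Pairs of beta windows from different chromosomal groups reached at most 54.5%.

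**Figure D1:**
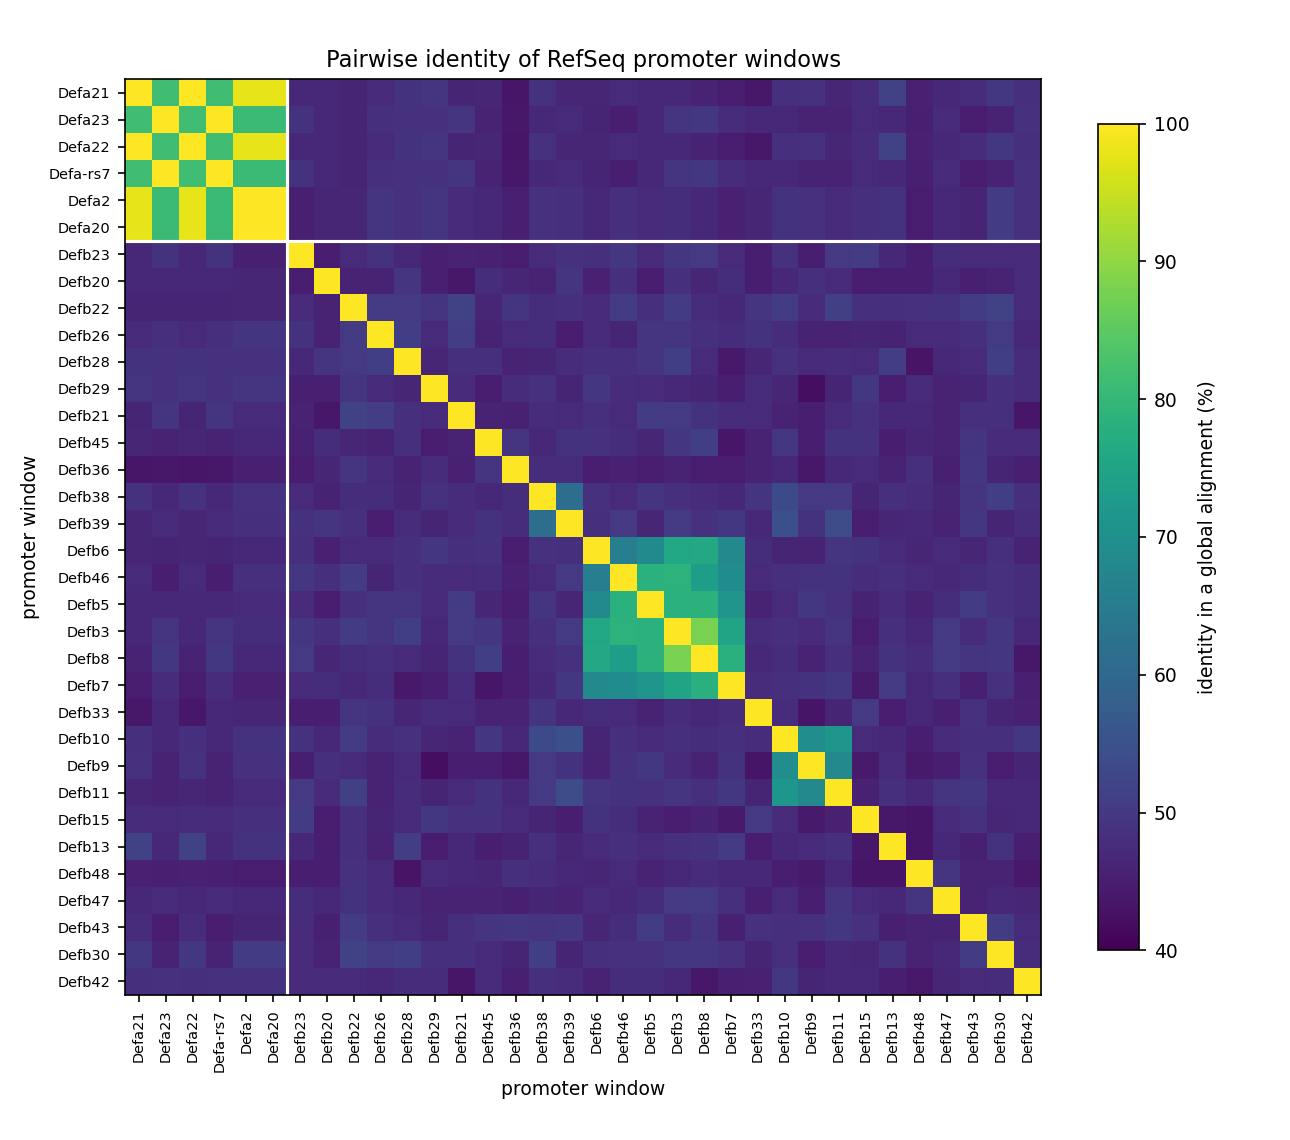
Pairwise identity (colour, percent) of the 34 promoter windows of defensin genes, with the 6 alpha genes at the top left, white lines between the families, and genes in chromosomal order within each family. The alpha block lies between 80.9% and 100%, a block of 6 beta genes between 65.8% and 87.8%, and most other cells lie near 47%.

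The members sat in 5 groups on 4 chromosomes, when neighbours at most 1 Mb apart were joined. Every alpha member was on chromosome 8, which also held 24 of the 41 protein-coding beta members. The other beta members were 11 on chromosome 2, 5 on chromosome 14, and 2 on chromosome 1. All positions are given on mm10. The second group on chromosome 8 was the largest. It ran from Defb33 to Defb13 (chr8:20892669-21948850) over 1056 kb and held 36 members, 26 of them alpha and 10 beta. The first group on chromosome 8 ran from Defb40 to Defb7 (chr8:18974940-19497775) over 523 kb, with 14 beta genes and 4 alpha pseudogenes. A stretch of 1.39 Mb with no member lay between these groups.

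Within the second group the alpha genes formed one block of 724 kb (chr8:21025545-21750000). It began with Defa21, ended with Defa-ps11 and held 13 protein-coding members and 13 pseudogene members, with 0 beta members among them. Genes with other symbols also lay inside the block. Among them were the unprocessed pseudogenes Gm15300, Gm15305, Gm15311 and Gm15313, whose relation to the alpha family was not tested. Processed pseudogenes such as Gm6689 and snRNA genes such as Gm23142 lay there too. Beta genes flanked it on both sides. Defb33 ended 127.8 kb before the block and Defb1, a beta-defensin known from kidney epithelium, began 26.6 kb after it. The symbols used here left out 3 Ensembl genes that have a beta symbol or synonym elsewhere. Among them, Gm15056 (RefSeq synonym Defb52) and Gm6040 (RefSeq synonym Defb51) lay between Defb33 and the block. On the plus strand lay 24 of the 26 alpha members of the block, while the pseudogene Defa-ps7 lay on the minus strand. Beta coding genes on chromosome 8 were more mixed, with 15 on the plus and 9 on the minus strand. The first group ran in blocks of 1 orientation, with its first 5 members (Defb40, Defb37, Defb38, Defb39 and Defb12) all on the minus strand.

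**Figure D2:**
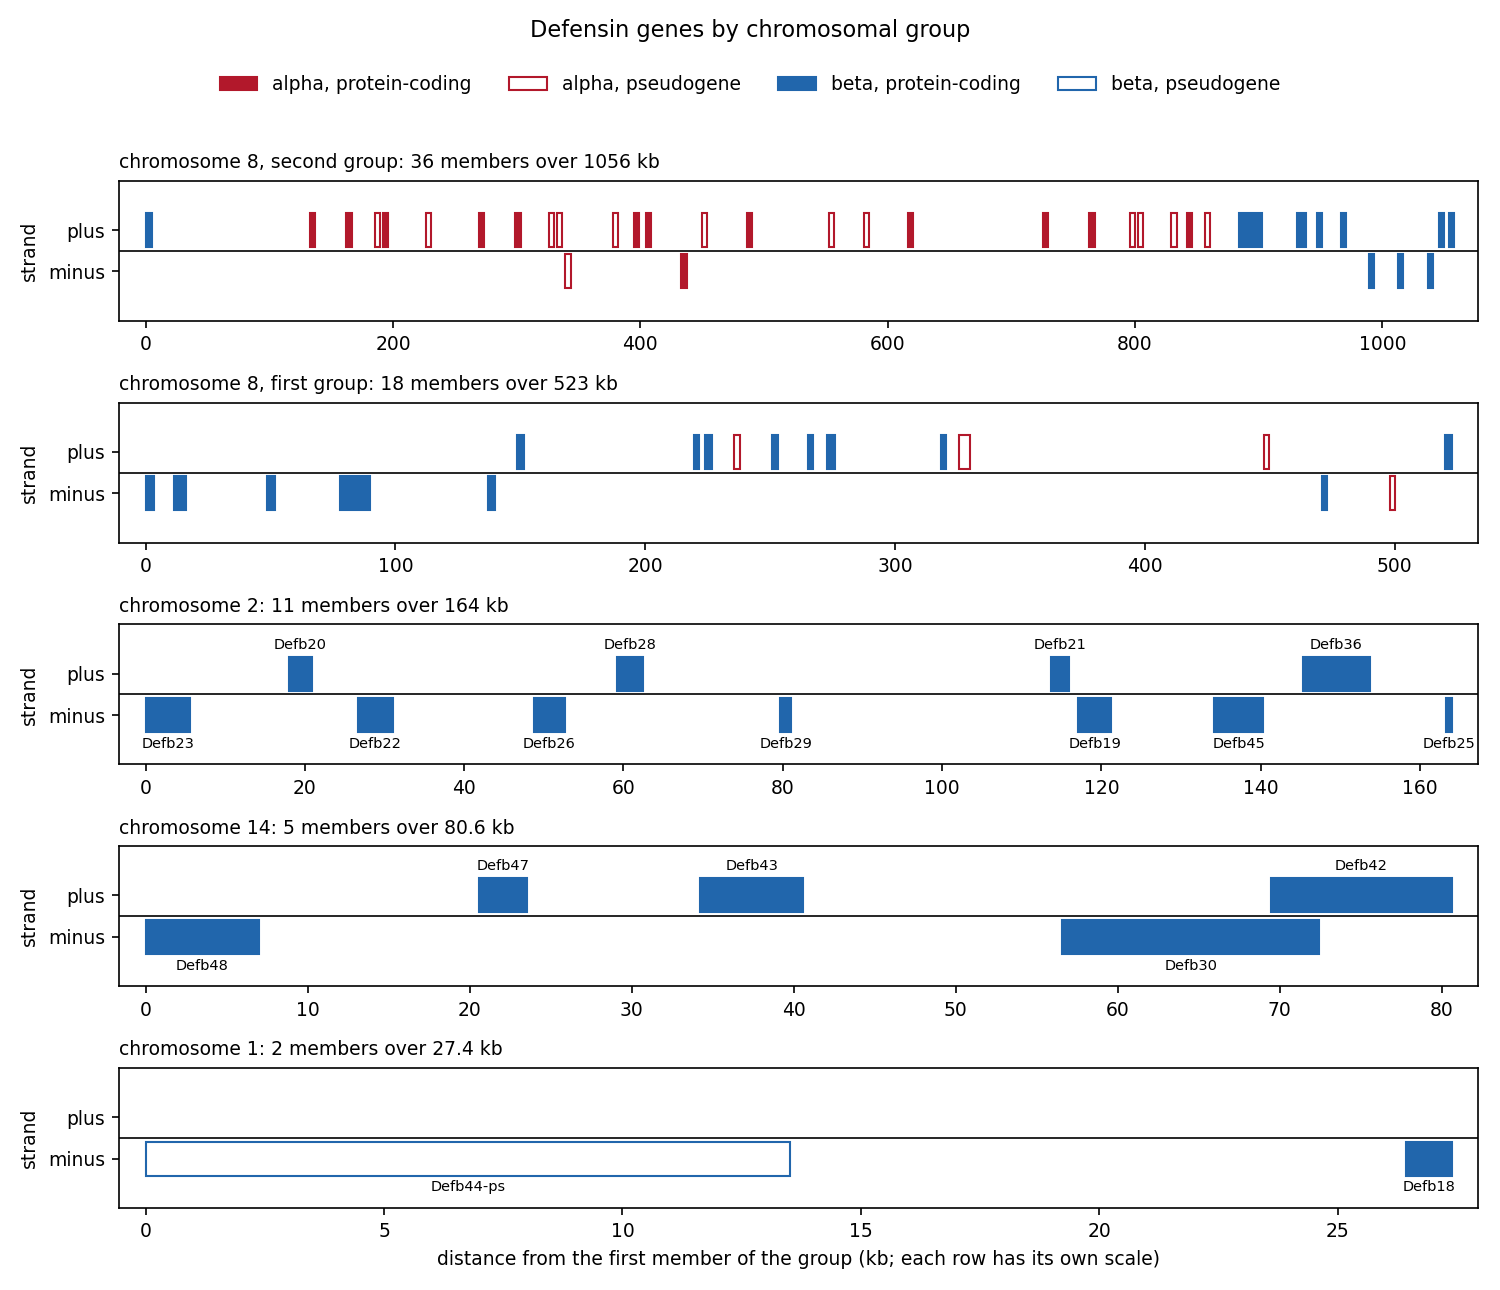
Defensin genes drawn by strand along each of the 5 groups, as distance in kb from the first member; filled boxes are protein-coding genes and open boxes pseudogenes, alpha in red and beta in blue. Very narrow boxes are widened so that they can be seen; the 26 alpha members of the second chromosome 8 group lie together between beta genes.

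The alpha coding genes were nearly uniform in structure. All 13 had 1 transcript and 2 exons, both coding. The first coding exon had 172 coding bases in 12 of 13 and 176 in Defa25 (chr8:21084442-21085285). The second coding exon had 107 bases in 9 genes, among them Defa3, Defa5, Defa17, Defa21, Defa22, Defa23 and Defa24. It had 113 bases in Defa2 and Defa20 and 100 in Defa25. The coding sequence had a median of 93 codons, and the lowest number was 92 in Defa25. The intron between the coding exons had a median of 559 bases with quartiles at 555 and 559, and the shortest was that of Defa26 (chr8:21618183-21618972) with 418 bases. The span of a gene had a median of 969 bases with quartiles at 936 and 973, and the smallest was that of Defa26 with 790 bases.

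Over all 22159 protein-coding genes, defensins included, the median coding sequence had 387 codons, with quartiles at 248 and 643. Of these genes 2.48% were shorter than the alpha median of 93 codons. A coding sequence in exactly 2 exons was found in 13 of 13 alpha genes, in 39 of 41 beta genes and in 6.39% of all protein-coding genes. In 12 of 13 alpha genes (92.3%) the first coding exon ended after the first base of a codon, called phase 1. The share was 38 of 41 (92.7%) in the beta family and 39.5% of the 18452 protein-coding genes with a split coding sequence. The families thus shared the phase of their first coding junction while the length before it differed.

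**Figure D3:**
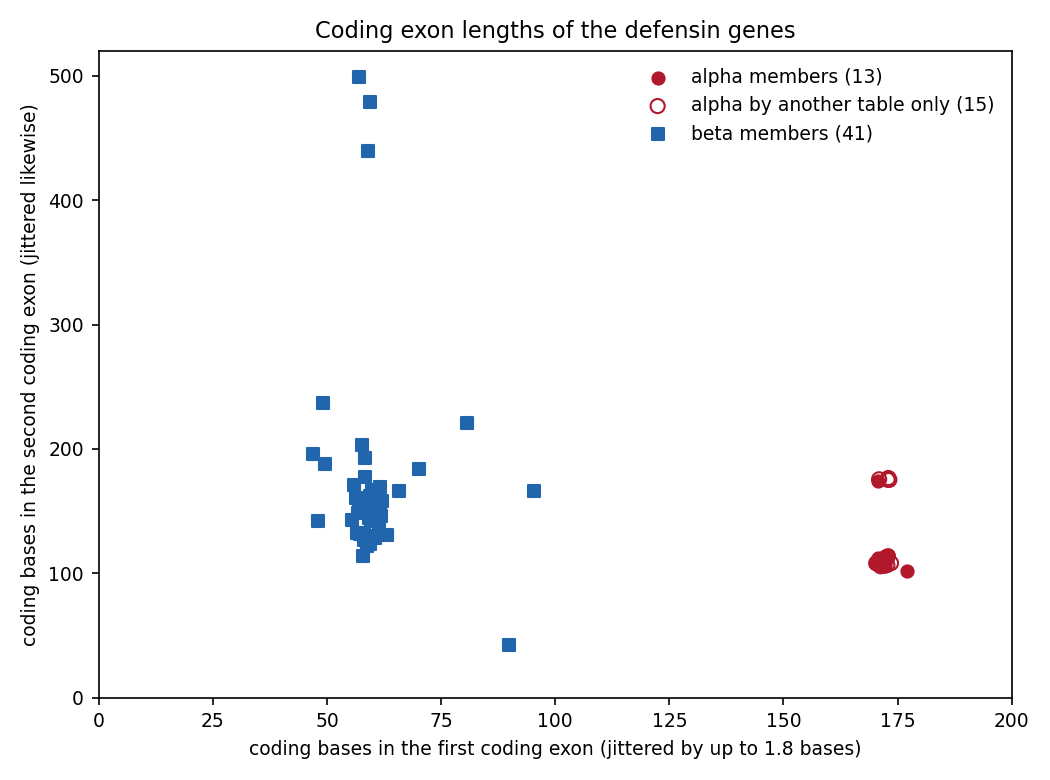
Coding bases in the first (x axis) and second (y axis) coding exon of each protein-coding defensin gene, with alpha members in filled red, genes that only other tables name as alpha-defensins in open red, and beta members as blue squares. The alpha genes lie at 172 or 176 bases on the x axis, and the beta genes lie between 48 and 94 bases.

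A first coding exon of 172 coding bases was found in 66 protein-coding genes of the annotation, so this length alone did not mark the alpha genes. Together with a coding sequence in exactly 2 exons it was found in 29 genes, and all 29 were on chromosome 8. The alpha members made up 12 of them. The gene name table or the RefSeq table gives 15 others an alpha-defensin symbol. The remaining genes, named here because their values singled them out, were AY761185 and Rab20, which encodes a small GTPase. AY761185 had 94 codons, with 172 and 110 coding bases, and lay on the minus strand between Defb33 and Defa21.

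The symbols in the deposited annotation therefore left out part of the alpha family. Of the 15 genes, 9 have an alpha symbol in the gene name table, such as Gm15284 (Defa30), Gm15299 (Defa27), Gm10104 (Defa35) and Gm6696 (Defa28). The other 6 have one only in the RefSeq table, namely Gm14851 (Defa38), AY761184 (Defa39, matched by position), Gm15292 (Defa40), Gm15293 (Defa41), Gm7849 (Defa42) and Gm7861 (Defa43). All 15 lay inside the alpha block, which brings its coding genes to 28 against 13 by symbol. Their coding introns ran from 418 to 628 bases with a median of 561, and their coding sequences from 93 to 116 codons. Promoter windows were found for 10 of the 15. TATAAA was in 9 of the 10, again 74 bases before the coding start in each, and the exception was Gm6696. Counted from the RefSeq start its place varied, from 29 bases before it in Gm15308 to 74 in Gm14851. It lay 20 to 40 bases before the RefSeq start in 1 of the 10, against all 6 alpha members with a window. CTTTGAA or CTTTGAT was in 7 of the 10 and was not found in the windows of Gm14851, Gm7849 and Gm7861. Both copies of ATCAAAG, at 155 and 115 bases before the coding start, were in Gm10104, Gm15293 and Gm15308 only. Gm14850, Gm15284 and Gm21498 had the copy at 155 bases alone, and Gm6696 had 1 copy at 84 bases. Among the members, Defa-rs7 is named Defa31 in both tables. Defa1 of the named-gene list has no model in the annotation.

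Among the 15 genes named as alpha-defensins only by other tables, 4 lay on the minus strand and differed in structure from the 11 on the plus strand. These 4, Gm14851, Gm7849, Gm7861 and AY761184, had 116 codons each, with 172 and 176 coding bases. Their coding introns ran from 624 to 628 bases. Each of the 4 carried a snoRNA gene, a small nucleolar RNA gene, inside that intron on the same strand. On the plus strand, 0 of 23 alpha coding genes of the block carried a snoRNA gene, the coding sequences had 92 to 95 codons, and the introns had 418 to 565 bases. Strand and structure did not always go together. AY761185, on the minus strand outside the block, had no snoRNA gene, 94 codons and an intron of 569 bases. A processed pseudogene, a copy made from a spliced RNA, started 5.51 to 5.59 kb above the lowest coordinate of each of the 4 snoRNA-carrying genes.

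Distances between neighbouring alpha coding genes recurred. The 27 start-to-start distances among the 28 genes ran from 9.95 to 53.8 kb with a median of 27.6 kb. In 4 of them the distance was within 0.1 kb of 10 kb. These were Defa23 to Gm10104, Defa-rs7 to Gm15293, Defa3 to Defa5, and Defa17 to Gm15315. In each of these pairs the first gene had a coding intron of 559 bases and the next one of 561. The step from Defa21 to Defa23 measured 29.5 kb and that from Defa22 to Defa-rs7 measured 29.3 kb, and Defa21 and Defa22 have identical promoter windows, as do Defa23 and Defa-rs7.

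The 17 alpha pseudogenes were all annotated as unprocessed, which is a copy that keeps its gene structure. RefSeq instead lists Defa-ps8 as protein-coding, and Defa-ps1, Defa-ps12 and Defa-ps13 as transcribed pseudogenes. The 13 inside the alpha block had 1 exon in 5 and 2 exons in 8. Their whole first exon had 171 bases in 8 and 172 in 2, close to the 172 coding bases common in the coding genes. It had 168 bases in Defa-ps7, 176 in Defa-ps18 and 183 in Defa-ps4. With its untranslated bases the first exon of a coding gene could be longer, as in Defa21 with 215 bases. Introns of these pseudogenes ran from 424 to 1026 bases, and Defa-ps3 (chr8:21078141-21078846) had the shortest. Defa-ps7 was the shortest member of all with 168 bases.

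The other 4 alpha pseudogenes, Defa-ps12 to Defa-ps15, lay in the first group among beta genes. Defa-ps12 (chr8:19210462-19212994) had a first exon of 58 bases and an intron of 2113 bases. Defa-ps13 (chr8:19300677-19304794) had a first exon of 58 bases too, with an intron of 3914 bases. In the beta family 58 was the most common number of coding bases in the first coding exon, which is not the length of a whole exon. Among beta genes with that number, the whole first exon had 58 bases in Defb47 but 85 in Defb4. The gene name table and the RefSeq table both keep the alpha symbols of Defa-ps12 and Defa-ps13. Defa-ps14 had exons of 185 and 233 bases around an intron of 521 bases, and Defa-ps15 had 3 exons.

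The beta coding genes were also short but far more varied. Of 41 genes, 38 had 1 transcript, 35 had 2 exons, 5 had 3 and 1 had 4. The first coding exon had 58 bases in 19 genes and 61 in 10, and ranged from 48 to 94 bases over the family. Phase 1 followed it in all but Defb34 and Defb35, with 48 bases each, and Defb5, with 62. Over all protein-coding genes, 0.690% had 58 and 0.731% had 61 coding bases there. Coding sequences had a median of 73 codons, with quartiles at 64 and 81, and 1.13% of all protein-coding genes were shorter than this median. At most 100 codons were found in 38 of 41 beta genes, in 12 of 13 alpha genes and in 3.29% of all protein-coding genes.

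The shortest beta coding sequence was that of Defb46 (chr8:19239916-19242143) with 57 codons. The longest was that of Defb26 (chr2:152507798-152511692) with 186 codons, followed by Defb22 with 179 and Defb23 with 166. All 3 had a first coding exon of 58 bases, so their length came from the second, with 500, 479 and 440 coding bases. These genes lay close together on chromosome 2 with Defb20 as the only other member between them, and Defb22 is known for a sperm surface protein made in the epididymis.

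The introns of the beta genes covered a wide range. The first coding intron had a median of 2567 bases, with quartiles at 1655 and 3833, against 559 bases in the alpha family. The median over all protein-coding genes with a split coding sequence was 2532 bases, so that the alpha introns, not the beta introns, were the short ones. Defb1 (chr8:21776599-21795185) had the longest first coding intron of the family, 17715 bases, and with 18587 bases the largest span. Defb12 had the shortest, 361 bases, and Defb25 (chr2:152622356-152623053) had the smallest span, 698 bases.

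**Figure D4:**
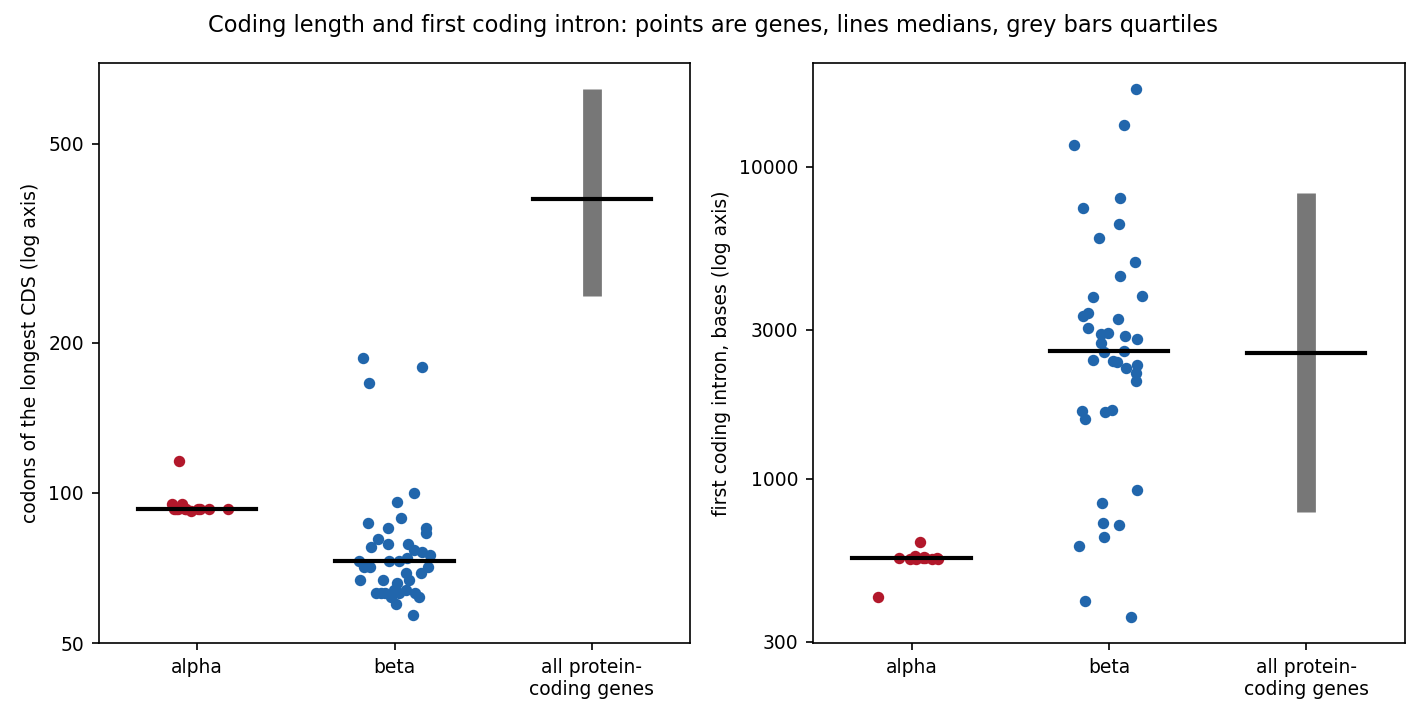
Codons of the longest coding sequence (left) and length of the first coding intron in bases (right), on log axes, for the 13 alpha and 41 beta coding genes (points; black lines are medians) and all protein-coding genes (grey bars from the first to the third quartile). Alpha introns cluster near 559 bases while beta introns spread from 361 to 17715 bases.

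The coding lengths of beta genes overlapped between chromosomal groups. In the first group of chromosome 8 the 14 coding genes had a median of 63.5 codons (57 to 85), and the 10 of the second group had a median of 70 (62 to 79). The 5 genes of chromosome 14 had a median of 76 codons (69 to 87) and the 11 of chromosome 2 had one of 89 (66 to 186). A first coding exon of 58 bases was found in every one of these groups, in 7 and 3 genes of the first and second chromosome 8 groups, in 3 on chromosome 14 and in 6 on chromosome 2. A first coding exon of 61 bases was found in 4, 5 and 1 genes of the first and second chromosome 8 groups and chromosome 14, and in 0 genes of chromosome 2. On chromosome 1 the only coding member was Defb18 (chr1:18236473-18237443), with 85 codons, a first coding exon of 70 bases and an intron of 713 bases. Its neighbour Defb44-ps (chr1:18210053-18223564), an unprocessed pseudogene, was the only non-coding beta member.

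The beta-defensins best known from epithelia lay in both groups of chromosome 8. Defb14 (chr8:19194357-19195212), counterpart of human beta-defensin 3, had 67 codons and an intron of 652 bases. Defb4 (chr8:19198706-19201545), whose product is inducible in epithelia, had 63 codons and an intron of 2386 bases. Defb3 (chr8:19293360-19295291) had 63 codons and an intron of 1657 bases. In the second group, Defb2 (chr8:21839926-21843482) had 71 codons and an intron of 3252 bases, and Defb1 had 69 codons. Defb14 and Defb4 were neighbours on the plus strand, both with a first coding exon of 58 bases, while that of Defb1 and Defb2 had 61.

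Several models began at the start codon and held no 5′ untranslated bases. This was so for 5 of 13 alpha genes (Defa2, Defa5, Defa25, Defa26 and Defa-rs7), for 8 of 41 beta genes and for 12.4% of all protein-coding genes. RefSeq placed the start before that of the model in 4 of the 5, by 43 bases in Defa2 and 41 in Defa-rs7. For Defa25 the RefSeq start and the start of the model coincided, so that RefSeq also begins at the start codon there.

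Exon bases shared with another model on the same strand can take reads from a gene, and that effect was not measured here. Over 50% of exon bases were shared in 1 of 30 alpha members, in 1 of 42 beta members and in 7.45% of all protein-coding genes. Both of these members were protein-coding, so that among coding genes alone the counts were 1 of 13 alpha and 1 of 41 beta. The alpha member was Defa24 (chr8:21734494-21735471), with 282 of its exon bases (67.3%) covered by a model named Defa6. That model has the source "unknown" and 93 codons, and all of its 282 exon bases lie within Defa24. The beta member was Defb42 (chr14:63046991-63058149), with 1746 of its exon bases (72%) covered by the RefSeq model 2700070H01Rik. With Ensembl models alone, 0 members in both families shared any exon base, against 6.25% of all protein-coding genes. Defb42, the member with the most transcripts (5) and exons (4), also overlapped Defb30 by 2970 bases on the other strand, with 0 exon bases in common.

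The annotation carried 3 further added models with a defensin name. Defa4 had 1 exon of 167 bases, and all of it lay within Gm10104, the gene that other tables call Defa35. Defb41 shared 467 of its exon bases with Gm15386, which the gene name table calls Defb41 too. Defb48-ps shared none. Bases of Defa24 and of Gm10104 thus carried more than 1 gene name, as did those of Defb42. The spans of Gm21498 and Gm21002 also overlapped added models on the same strand, named LOC100862126 and LOC100505096. How alike the exons of the alpha genes are in sequence was not measured, and no read count was analysed here.

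A list of 15 other antimicrobial and related genes gave a frame for these structures. Protein-coding models were found for 14 of them, on 8 chromosomes. The exception was Pla2g2a, a secreted phospholipase of Paneth cells, annotated as a polymorphic pseudogene (chr4:138831857-138835186). The 14 genes had a median of 148 codons and 3 of them had 2 coding exons. Camp, which encodes the cathelicidin precursor, had 172 codons in 4 coding exons. Lyz1 and Lyz2, the lysozymes of Paneth cells and of macrophages, had 148 codons in 4 coding exons each. Mmp7, the protease that processes alpha-defensins in mouse intestine, had 267 codons in 6 coding exons.

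Ccr6, a chemokine receptor that binds some beta-defensins, had 367 codons in 1 coding exon. Spag11a and Spag11b are epididymal genes related to beta-defensins. Spag11a (chr8:19157886-19159578) had 69 codons, 2 coding exons and a first coding exon of 55 bases. Spag11b (chr8:19140759-19143010) had a first coding exon of 61 bases and 113 codons in 3 coding exons. In both of them phase 1 followed that exon, and both lay within the first group of chromosome 8. Exon bases were shared in 1 of the 14 genes, Slpi, a secreted protease inhibitor, by 1 base.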

How the data were processed

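The 16 libraries of 7 groups were not analysed, since the deposited file holds gene models only: 0 of its lines carries a score and 0 columns belong to a sample. Its values are positions in bases on a chromosome, counted from 1, in the annotation the authors deposited. The submitters' processing notes name the aligner TopHat2 2.1.1 and the build mm10; sources used here do not state how the annotation was assembled. Models of the sources ensembl, havana, ensembl_havana, insdc and mirbase were counted as Ensembl, all others as added.

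Python 3.11.15, numpy 2.4.6, scipy 1.17.1 and Biopython 1.88 were used. Coding lengths come from the longest coding sequence of a gene, without the stop codon. RefSeq genes (GRCm38.p6) were matched by symbol, synonym or at least 90% overlap, for 67 of 72 members; all 72 were in the gene name table. Promoters were aligned globally (match 1, mismatch -1, gap opening -3, extension -1). The steps were tested on simulated gene models.

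Members and lists were chosen with earlier results of these data known. Named genes are the family extremes, group ends, shared models, the non-coding beta member, the first 5 non-coding alpha members by position and listed genes; those named for promoters, symbols, strand or spacing were chosen after their values were seen. Some results on single members are not reported here.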

Additional observations from a re-analysis of the deposited data

How the results depend on the processing

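Of 41 alternative settings, 35 left a count within 1.5 times its value or a median within its 95% order-statistic interval, and 6 did not. The interval served only as a tolerance and not as a measure of sampling spread, since genes are not replicates. For alpha promoter identity it was taken over 15 pairs of only 6 windows, some of them identical, so these pairs were not independent. Alpha gene models numbered 30, against 13 when only protein-coding genes were counted. Mostly shared genes numbered 1 in each family, against 0 in the alpha family and 0 in the beta family with Ensembl models only, and 0 and 0 with a cutoff of over 90% of exon bases. The median identity of alpha promoter windows was 81.6%, against 71.8% with the genes that other tables name as alpha-defensins, a setting added after the data were seen; the cause was not tested. The number of groups was 5 with gaps of at most 0.25, 0.5 or 1 Mb and 4 with 2 Mb. Alpha genes numbered 39 by the symbols of the gene name table and 45 with those of the RefSeq table added. The cysteine pattern of the proteins was not run, since protein sequences were not used here. No paired analysis was possible because the file holds no value per library and no test was made.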
